A study of Homo sapiens with 30 samples.

Results

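The genes described here encode nucleoporins, karyopherins and the proteins of the Ran cycle. Their symbols in the deposited PRO-Seq table are NUP, KPNA, IPO, XPO or TNPO followed by digits, or KPNB1, XPOT, CSE1L, RAN, RCC1 or RANBP1. This rule used names only and found 46 genes of 20367. G401 cells, a malignant rhabdoid tumor line that lacks SNF5, carried an inducible construct for EGFP, OmoMYC or SNF5, delivered by lentivirus and kept as selected pools of transduced cells. EGFP was the control, OmoMYC is a dominant-negative form of MYC, and SNF5 (encoded by SMARCB1) is the SWI/SNF subunit that these cells had lost. All samples had received doxycycline (1 μg/ml) to switch the construct on, and were taken 24 h later. PRO-Seq was available in 3 samples and ATAC-Seq in 3 samples per construct, and MYC ChIP-Seq in 2. The samples of a construct are biological replicates by the study's account, while the labels do not say how the cultures were kept apart.

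Nuclear pore complexes are the gates between nucleus and cytoplasm. Scaffold nucleoporins form the rings, others line the channel, and those of the basket and the cytoplasmic side hold the factors that meet cargo. Karyopherins carry proteins and RNAs through the pore: importins bind cargo in the cytoplasm and exportins in the nucleus. Direction is set by RAN, a small GTPase that is loaded with GTP by RCC1 at chromatin and is switched to the GDP form in the cytoplasm with the help of RANBP1. MYC is a transcription factor that binds the E-box CACGTG together with MAX and acts on many genes of growing cells.

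PRO-Seq maps RNA polymerases that are engaged in transcription. The table gives reads in a promoter-proximal window of 50 bp, the one with most reads near the known start, and reads in the gene body, from 1 kb past the start to the end of the transcript. Gene body totals ran from 28444943 to 46957634 reads per sample. Promoter-proximal reads were 1.46% to 1.97% of all reads in samples numbered 1, 8.63% to 10.3% in those numbered 2 and 4.21% to 5.13% in those numbered 3, so that values of this region are compared below within a number. SMARCB1 had 1 to 6 gene body reads in each EGFP sample, 2 to 5 in each OmoMYC sample and 2870 to 4467 in each SNF5 sample.

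Of the 46 genes, 43 passed a filter of at least 10 reads on average in both regions, as did 11171 genes in all. KPNA2, an importin alpha, was listed at 0 in both regions of all 9 samples, although peaks of open chromatin and of MYC lay at its start, so this 0 may not reflect its transcription. KPNA7, another importin alpha, had 4 to 17 gene body reads per sample. IPO5, an importin of ribosomal proteins and histones, had 4779 to 8201 gene body reads per sample but 2 promoter-proximal reads in all samples together, which may likewise not reflect its transcription. Without the filter its gene body log2 fold change was −0.24 with OmoMYC (standard error 0.08, adjusted p = 0.076) and −0.20 with SNF5 (standard error 0.08, adjusted p = 0.074).

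MYC bound close to the start of 13 of the 46 genes in EGFP cells: RAN, RANBP1, KPNB1, CSE1L, XPOT, XPO6, IPO7, TNPO2, KPNA4, NUP35, NUP88, NUP153 and NUP155. A gene was counted as bound where peaks of both EGFP samples overlapped and a summit lay within 1 kb of its start, and this held for 884 of all 20367 genes (4.34%) and for 829 of the 11171 tested genes (7.42%). The deposited lists held 940 and 5396 peaks, and a peak of either EGFP sample lay within 1 kb of 34 of the 46 genes and of 23.2% of all genes. With OmoMYC no MYC peak was left: each of its lists held 1 line, which its own name marks as fake, and this line was set aside. With SNF5 137 and 27 peaks were listed. No peak of either sample lay within 1 kb of any of the 46 genes (0 of 46, which allows a share of up to 6.52%). This bound is 3 divided by the number of genes. It treats the genes as independent and does not cover differences between samples. Over all genes 131 of 20367 (0.643%) had one, so 0 of 46 is near that background. Of the 884 bound genes, 129 (14.6%) had one. Among the 13 bound genes 0 of 13 allows a share of up to 23.1%. The number of bound genes depends on the rule: it was 7 with a −log10 q of at least 5 in both samples, 3 (KPNB1, NUP35 and TNPO2) where peaks had to overlap by at least 50% of each other, and 34 without the first EGFP sample. The lists hold peak calls and not read counts, so a missing peak does not show that MYC was absent.

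The E-box CACGTG was found within 1 kb of the start in 21 of the 46 genes (45.7%) and in 29.6% of all genes, and within 250 bp in 23.9% and 11.1%. The letters read the same on both strands. Of the 13 bound genes, 9 had the E-box within 1 kb (69.2%), as had 71.4% of all 884 bound genes. It lay within 100 bp of a summit for 6 of the 13 and for 57.9% of the bound genes in all. The 6 are shown first, followed by the sites of RAN and RANBP1, whose gene bodies are described below. Each line gives 30 bases of GRCh37 (the build of the peaks, hg19) on the strand of the gene, with the E-box in capitals, and a match is a description of letters, not of binding.
TNPO2, chr19:12834753-12834782, minus strand, 42 bp downstream of the start and 0 bp from a summit: ggcggctttctgCACGTGtttctcagccca
NUP35, chr2:183989608-183989637, plus strand, 539 bp downstream and 2 bp from a summit: ctgaccgcggtaCACGTGggtgggcggtgc
NUP88, chr17:5323376-5323405, minus strand, 332 bp upstream and 10 bp from a summit: atcgaccggcccCACGTGgagacagattta
NUP153, chr6:17706293-17706322, minus strand, 510 bp downstream and 12 bp from a summit: ccttgcggcgcaCACGTGtggtttgggccg
KPNA4, chr3:160283549-160283578, minus strand, 188 bp upstream and 39 bp from a summit: tctctccgaaggCACGTGgtccttccccgc
IPO7, chr11:9406049-9406078, plus strand, 106 bp upstream and 70 bp from a summit: agctcaggcagcCACGTGggctgcggactg
RAN, chr12:131356497-131356526, plus strand, 106 bp upstream and 123 bp from a summit: gcacgcgcgggcCACGTGggcgggcgccgc
RAN, chr12:131357031-131357060, plus strand, 428 bp downstream and 162 bp from a summit: ttgtggggcgggCACGTGgggcgctggggg
RANBP1, chr22:20105237-20105266, plus strand, 227 bp downstream and 203 bp from a summit: gttatcagcggcCACGTGggcggcccgcgc
CSE1L, KPNB1, NUP155 and XPO6 were bound with no CACGTG within 1 kb of the start, which says only that these letters are not in that window.

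Peak heights are fold enrichments over the local background that the peak caller gave. For the 13 bound genes they ran from 3.81 to 7.90 in the first EGFP sample and from 5.93 to 11.1 in the second, taking the highest peak of each gene. In the second sample the highest were at NUP153 (11.1, −log10 q 30.8), a nucleoporin of the basket, RANBP1 (10.6, −log10 q 30.5) and RAN (10.3, −log10 q 31.0). RAN also had the highest peak in the first sample (7.90, −log10 q 12.6), with its summit 591 bp downstream of the start, and NUP153 had the lowest there (3.81, −log10 q 4.50). The order of the genes by height thus differed between the samples. The first sample listed fewer peaks, and all 13 of these genes with a peak in it also had one in the second. RANBP1 shares its promoter region with TRMT2A on the opposite strand, and NUP88 with RPAIN, so their peaks cannot be given to one gene of the pair. The same holds for CSE1L (CSE1L-DT), KPNB1 (KPNB1-DT), NUP153 (NUP153-AS1) and KPNA4 (KRT8P12), with the opposite-strand gene given in brackets.

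**Figure D1:**
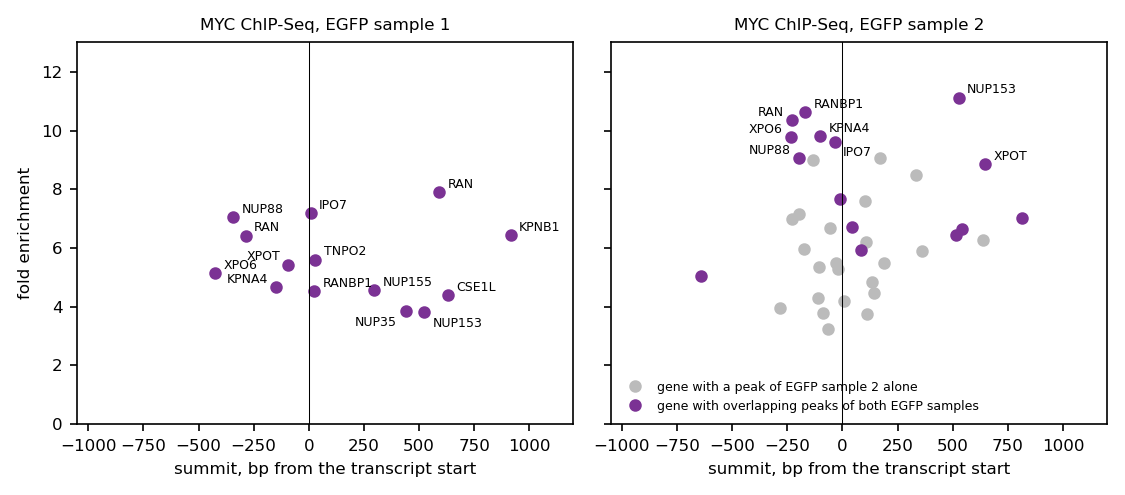
MYC peaks near starts of nucleoporin and karyopherin genes in both EGFP samples. Each point is a peak, with the distance of its summit from the transcript start in bp (negative is upstream) and its fold enrichment; the first sample has peaks at the 13 bound genes, from 3.81 to 7.90, and the second has peaks at 34 genes, and names are given in it for bound genes at 8.5 and higher.

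Levels in EGFP cells are given as gene body density, in reads per kb of gene body per 1000000 scaled gene body reads. The median of the 43 genes was 2.45 and that of all 11171 tested genes 1.79. RCC1 was the highest at 27.7 ± 0.818 (SD, n = 3), followed by RAN at 17.7 ± 0.764, TNPO2 at 13.7 ± 11.5, KPNB1 at 8.70 ± 0.347 and XPO1 at 6.77 ± 0.868. RCC1 and RAN did not overlap in their 3 EGFP samples, nor did KPNB1 and XPO1, while RAN overlapped with TNPO2 and most neighbours further down overlapped. IPO8 was the lowest at 0.990 ± 0.0495. The table counts RCC1 on NR_030725 (hg19, chromosome 1, 28832455 to 28865708), whose start is also the start of SNHG3 on the same strand, and the small nucleolar RNA gene SNORA73B lies inside that gene body, so the level of RCC1 cannot be told apart from transcription of these.

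A comparison of gene body counts in OmoMYC and EGFP cells asks how polymerase across these genes differed when MYC was inhibited. The genes were mostly lower: 12 of 43 fell and 0 rose, against 7.27% of all tested genes that fell and 5.16% that rose. Shares of all tested genes, here and below, are not matched to the 43 genes for read number. In EGFP sample 1 the median of scaled gene body reads was 179 for the 43 genes and 44.9 for all tested genes. It was 179 and 43.2 in sample 2, and 173 and 43.5 in sample 3. The part of read number in the calls was not tested. The 12 that fell were RAN, RANBP1, KPNB1, CSE1L, XPO5, NUP50, NUP85, NUP93, NUP107, NUP155, NUP160 and NUP205. Their log2 fold changes ran from −0.45 to −0.22, and the median over all 43 was −0.13, beside −0.03 over all tested genes. The calls of CSE1L and NUP205 were at the edge of the threshold (adjusted p = 0.049 each in edgeR). They held in 5 and 4 of 11 alternative settings. In all, 37 of the 43 values were below 0 (86.0%), as were 56.6% of all tested genes. Scaled by library totals alone, 7 fell and 1 rose, and the calls over all tested genes were 61.7% higher in place of 41.5%. By number, 27 of the 43 were lower with OmoMYC in each of the 3 same-numbered pairs, as were 33.1% of all tested genes.

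The same comparison for SNF5 asks how these genes differed after SNF5 was restored. Here 12 of 43 fell and 1 rose, against 22.1% and 12.4% of all tested genes, so the share that fell was near that background. RANBP1, KPNB1, XPO4, XPO5, IPO4, IPO9, TNPO2, KPNA6, NUP35, NUP85, NUP188 and NUP210 fell, with log2 fold changes from −0.57 to −0.16, and KPNA1 rose by 0.27. The median of the 43 genes was −0.15 and that of all tested genes −0.08. Both comparisons use the same 3 EGFP samples, so their values are given side by side and no likeness is read from them.

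These calls rest on the pairing of samples by replicate number. Without the number as a block, edgeR called 0 of 43 genes in either comparison with EGFP (8 and 3 at an unadjusted p under 0.05, smallest adjusted p 0.56 and 0.30). Leaving out the samples numbered 1 or those numbered 2 also left 0 calls in both comparisons, while leaving out those numbered 3 gave 33 calls with OmoMYC and 34 with SNF5. Leaving out a number called up to 5823 of all 11171 tested genes with OmoMYC and up to 6813 with SNF5. Many calls in such a fit are therefore not particular to the 43 genes. The median difference of the 43 genes between OmoMYC and EGFP was −0.18, −0.23 and −0.04 for numbers 1, 2 and 3, and between SNF5 and EGFP −0.17, −0.17 and −0.11. All called values kept their sign in every alternative that was fitted.

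**Figure D2:**
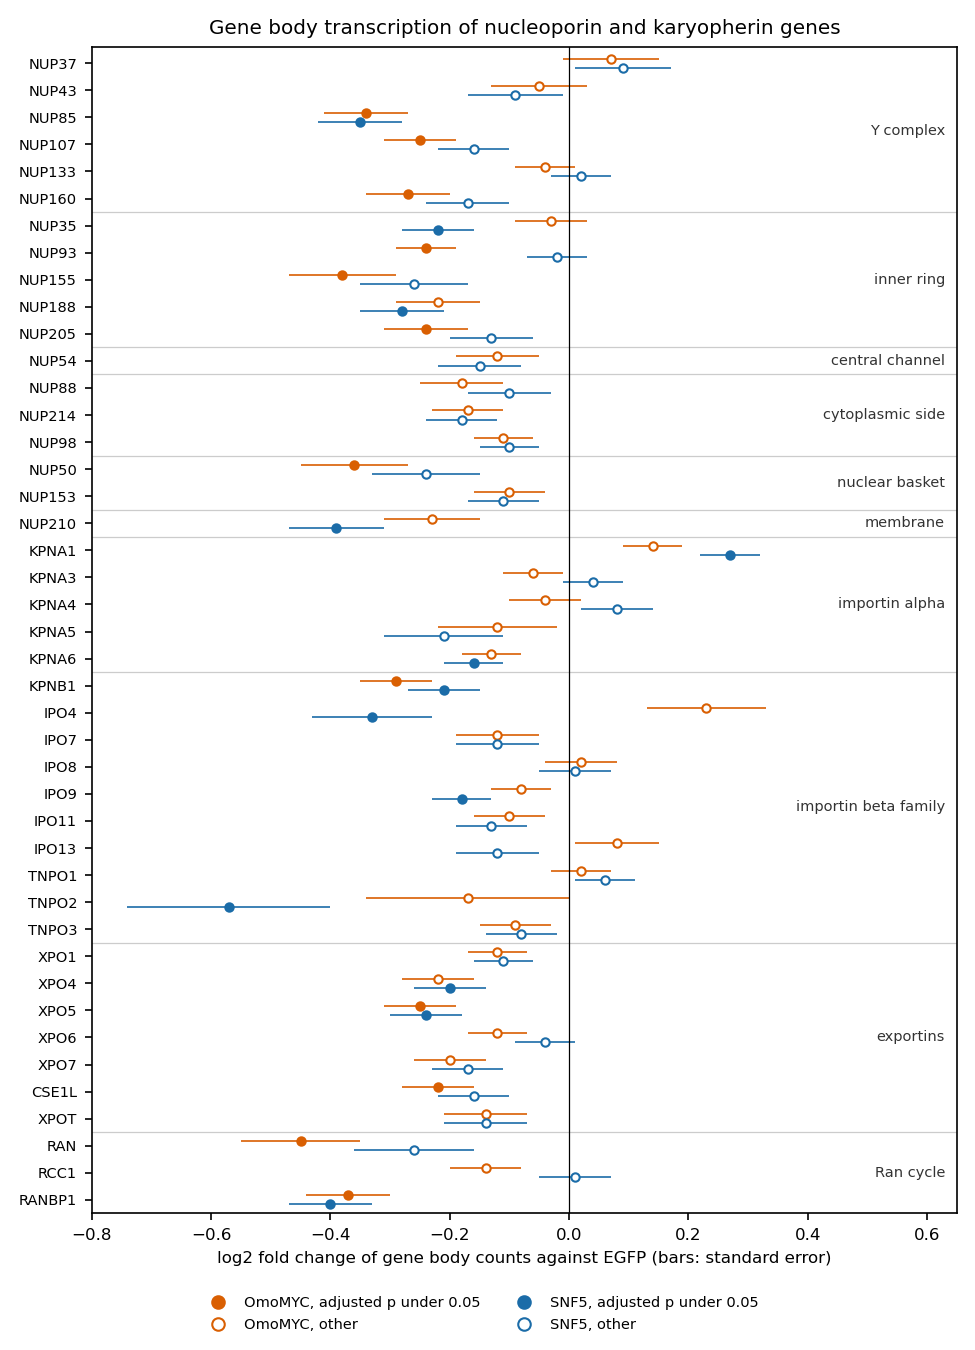
Log2 fold change of gene body counts against EGFP for the 43 tested genes, grouped by role, with OmoMYC in orange and SNF5 in blue. Points are estimates, bars are standard errors and filled points passed an adjusted p of 0.05. Of the values, 37 with OmoMYC and 35 with SNF5 lie below 0, as do 56.6% and 62.6% over all tested genes.

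Among the Ran cycle genes, RAN (NM_006325, chromosome 12, 131356617 to 131360826) had gene body densities of 17.8, 18.4 and 16.9 in the EGFP samples, 11.7, 12.5 and 14.6 in the OmoMYC samples and 15.1, 15.6 and 13.4 in the SNF5 samples, in the order of their numbers. All OmoMYC and SNF5 values lay below all EGFP values. RAN fell with OmoMYC (log2 fold change −0.45, standard error 0.10, adjusted p = 0.026 over 11171 genes in edgeR), and with SNF5 its value was −0.26 (standard error 0.10, adjusted p = 0.059), which did not pass.

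RANBP1 (NM_002882, chromosome 22, 20105024 to 20114704) had densities of 5.68, 3.56 and 5.44 with EGFP, 4.24, 2.56 and 4.65 with OmoMYC and 4.36, 2.63 and 4.17 with SNF5. The groups overlapped because the samples numbered 2 were low with every construct, but each number was lower with OmoMYC and with SNF5 than with EGFP. RANBP1 fell with OmoMYC (−0.37, standard error 0.07, adjusted p = 0.021) and with SNF5 (−0.40, standard error 0.07, adjusted p = 0.0043), the lowest adjusted p of the 43 genes in both comparisons. RANBP1 holds the small nucleolar RNA gene SNORA77 in its gene body.

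RCC1 had densities of 27.6, 26.9 and 28.5 with EGFP, 24.6, 22.6 and 28.6 with OmoMYC and 27.7, 25.6 and 30.7 with SNF5. The groups overlapped, and neither the value with OmoMYC (−0.14, standard error 0.06, adjusted p = 0.13) nor that with SNF5 (0.01, standard error 0.06, adjusted p = 0.89) passed the test. These counts cannot be told apart from transcription of SNHG3 and SNORA73B, so they do not show whether RCC1 itself changed. Of the 3 Ran cycle genes, with RCC1 taken by these counts, 2 fell with OmoMYC and 1 fell with SNF5.

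KPNB1 (NM_002265, chromosome 17, 45727275 to 45761004) encodes importin beta, which carries cargo together with the importin alpha adaptors. Its densities were 8.30, 8.95 and 8.85 with EGFP, 6.58, 6.68 and 8.22 with OmoMYC and 7.25, 7.21 and 8.13 with SNF5, and neither group overlapped with EGFP. KPNB1 fell with OmoMYC (−0.29, standard error 0.06, adjusted p = 0.028) and with SNF5 (−0.21, standard error 0.06, adjusted p = 0.032). Beside it, 9 further genes of the importin beta family were tested, and with OmoMYC none of these was called. With SNF5 the family had 4 calls, all lower: KPNB1, IPO4, IPO9 and TNPO2.

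TNPO2, a transportin that carries RNA-binding proteins, had the most uneven values. Its densities were 6.21, 26.9 and 7.91 with EGFP, 6.15, 19.3 and 8.07 with OmoMYC and 4.90, 11.4 and 7.23 with SNF5. The samples numbered 2 were the highest of each construct and carried the difference: the log2 difference between SNF5 and EGFP was −1.24 for number 2, −0.34 for number 1 and −0.13 for number 3. The fitted value was −0.57 (standard error 0.17, adjusted p = 0.030), and with DESeq2 the adjusted p was 0.050 after rounding, just under the threshold. The call was lost without the samples numbered 2 (−0.22, adjusted p = 0.15), without those numbered 1 (−0.69, adjusted p = 0.079) and with the 2 constructs alone (−0.57, adjusted p = 0.090). SNORD41, a small nucleolar RNA gene, lies on the same strand inside TNPO2 (chromosome 19, 12817263 to 12817332), and its part in these reads was not tested.

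IPO4, an importin of histones and ribosomal proteins, differed between both constructs. Densities were 2.97, 1.64 and 2.81 with EGFP, 3.24, 1.84 and 3.68 with OmoMYC and 2.25, 1.47 and 2.09 with SNF5. Each number was higher with OmoMYC and lower with SNF5 than with EGFP. IPO4 fell with SNF5 (−0.33, standard error 0.10, adjusted p = 0.038), its value with OmoMYC was 0.23 (standard error 0.10, adjusted p = 0.15), and the difference between SNF5 and OmoMYC was −0.57 (standard error 0.10, adjusted p = 0.0083). IPO7, IPO8, IPO11, IPO13, TNPO1 and TNPO3 passed neither comparison of gene body counts with EGFP, with values from −0.13 to 0.08.

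The importin alpha adaptors, which bind the nuclear localization signal of a cargo, did not move as one. KPNA1 (NM_002264, chromosome 3, 122140748 to 122233786) had densities of 2.80, 2.98 and 2.72 with EGFP, 3.22, 3.35 and 2.84 with OmoMYC and 3.37, 3.72 and 3.15 with SNF5. All SNF5 values lay above all EGFP values, and KPNA1 rose with SNF5 (0.27, standard error 0.05, adjusted p = 0.0049). With OmoMYC its value was 0.14 (standard error 0.05, adjusted p = 0.083). KPNA6 fell with SNF5 (−0.16, standard error 0.05, adjusted p = 0.036). KPNA3, KPNA4 and KPNA5 passed no test, and KPNA4, whose start MYC bound, had densities of 3.44, 3.70 and 3.40 with EGFP, 3.27, 3.50 and 3.50 with OmoMYC and 3.80, 3.96 and 3.39 with SNF5, which overlapped. KPNA4 holds the small RNA gene SCARNA7 in its gene body.

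All 7 exportins had values below 0 in both comparisons with EGFP, as had 56.6% of all tested genes with OmoMYC and 62.6% with SNF5. XPO5, which exports precursors of microRNAs, fell with OmoMYC (−0.25, standard error 0.06, adjusted p = 0.034) and with SNF5 (−0.24, standard error 0.06, adjusted p = 0.016). CSE1L, which returns importin alpha to the cytoplasm, had densities of 4.50, 3.96 and 4.69 with EGFP, 3.77, 3.27 and 4.27 with OmoMYC and 4.22, 3.60 and 3.95 with SNF5, which overlapped between the groups but were lower than EGFP in each number. CSE1L fell with OmoMYC (−0.22, standard error 0.06, adjusted p = 0.049), and with SNF5 its value was −0.16 (adjusted p = 0.075). The OmoMYC call held in 5 of 11 alternatives and was lost, among others, with library totals and with no count filter. XPO4 fell with SNF5 (−0.20, standard error 0.06, adjusted p = 0.038), and its value with OmoMYC was −0.22 (adjusted p = 0.058).

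XPO1, the main exporter of proteins with a nuclear export signal, had densities of 7.51, 5.81 and 7.0 with EGFP, 6.49, 5.32 and 6.89 with OmoMYC and 6.69, 5.45 and 6.71 with SNF5. Neither comparison passed, with a log2 fold change of −0.12 for OmoMYC (standard error 0.05, adjusted p = 0.13) and −0.11 for SNF5 (standard error 0.05, adjusted p = 0.13). The bound genes XPOT, the exporter of tRNA, and XPO6, the exporter of actin, did not pass either. XPOT had densities of 4.87, 5.66 and 4.54 with EGFP, 4.21, 4.78 and 4.62 with OmoMYC and 4.29, 4.69 and 4.63 with SNF5. XPO6 had 3.49, 2.97 and 3.47 with EGFP, 3.22, 2.72 and 3.16 with OmoMYC and 3.45, 2.94 and 3.26 with SNF5, and both genes overlapped between the groups.

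Nucleoporins of the Y complex, the outer scaffold of the pore, included 3 that fell with OmoMYC of 6 tested (NUP85, NUP107 and NUP160) and 1 that fell with SNF5 (NUP85). The shares of all tested genes that fell, 7.27% with OmoMYC and 22.1% with SNF5, are the background for the counts of each role, which are small. NUP85 had densities of 2.87, 2.07 and 2.41 with EGFP, 2.04, 1.60 and 2.17 with OmoMYC and 2.13, 1.55 and 2.13 with SNF5, lower than EGFP in each number although the groups overlapped. Its log2 fold change was −0.34 with OmoMYC (standard error 0.07, adjusted p = 0.026) and −0.35 with SNF5 (standard error 0.07, adjusted p = 0.0078). NUP37, NUP43 and NUP133 passed neither test, with values from −0.09 to 0.09.

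The inner ring, the scaffold next to the channel, had 5 tested genes. NUP93, NUP155 and NUP205 fell with OmoMYC, and NUP35 and NUP188 fell with SNF5. NUP155, bound by MYC, had densities of 2.27, 2.20 and 2.16 with EGFP, 1.60, 1.59 and 1.88 with OmoMYC and 2.00, 1.92 and 1.62 with SNF5, and all values of both constructs lay below all EGFP values. It fell with OmoMYC (−0.38, standard error 0.09, adjusted p = 0.035), and with SNF5 it had −0.26 (standard error 0.09, adjusted p = 0.059). NUP93 had 1.85, 1.64 and 1.66 with EGFP, 1.52, 1.34 and 1.49 with OmoMYC and 1.79, 1.61 and 1.67 with SNF5. The OmoMYC values of NUP93 lay below all EGFP values and the SNF5 values were close to those of EGFP. NUP93 fell with OmoMYC (−0.24, standard error 0.05, adjusted p = 0.025), had −0.02 with SNF5 (standard error 0.05, adjusted p = 0.79), and was higher with SNF5 than with OmoMYC by 0.22 (standard error 0.05, adjusted p = 0.018).

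NUP35 (bound) had densities of 2.33, 2.33 and 2.01 with EGFP, 2.22, 2.16 and 2.14 with OmoMYC and 2.07, 1.93 and 1.72 with SNF5. It fell with SNF5 (−0.22, standard error 0.06, adjusted p = 0.023) and had −0.03 with OmoMYC (standard error 0.06, adjusted p = 0.77), but the difference between the constructs, −0.19, did not pass (standard error 0.06, adjusted p = 0.065). NUP210, a membrane nucleoporin, had 1.73, 1.13 and 2.11 with EGFP, 1.47, 1.03 and 1.71 with OmoMYC and 1.45, 0.954 and 1.33 with SNF5. The samples numbered 2 were the lowest of each construct, and NUP210 fell with SNF5 (−0.39, standard error 0.08, adjusted p = 0.0089).

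On the nuclear side, NUP50 fell with OmoMYC (−0.36, standard error 0.09, adjusted p = 0.033). The basket nucleoporin NUP153 had gene body densities of 3.64, 3.49 and 3.62 with EGFP, 3.37, 3.09 and 3.54 with OmoMYC and 3.49, 3.28 and 3.20 with SNF5 and passed neither test. NUP88 on the cytoplasmic side (bound) had 3.07, 2.83 and 2.59 with EGFP, 2.69, 2.29 and 2.54 with OmoMYC and 2.92, 2.39 and 2.65 with SNF5, which overlapped and passed neither test. NUP98, NUP214 and NUP54 passed neither test, with values from −0.18 to −0.10.

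A direct comparison of SNF5 with OmoMYC called 2 of 43 genes, IPO4 lower and NUP93 higher, against 16.1% of all tested genes in either direction. The median of the 43 was 0.01, and that of all tested genes −0.03. In the remaining 41 genes the test did not separate the constructs, which does not show that they acted alike: the standard errors were 0.05 to 0.17.

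**Figure D3:**
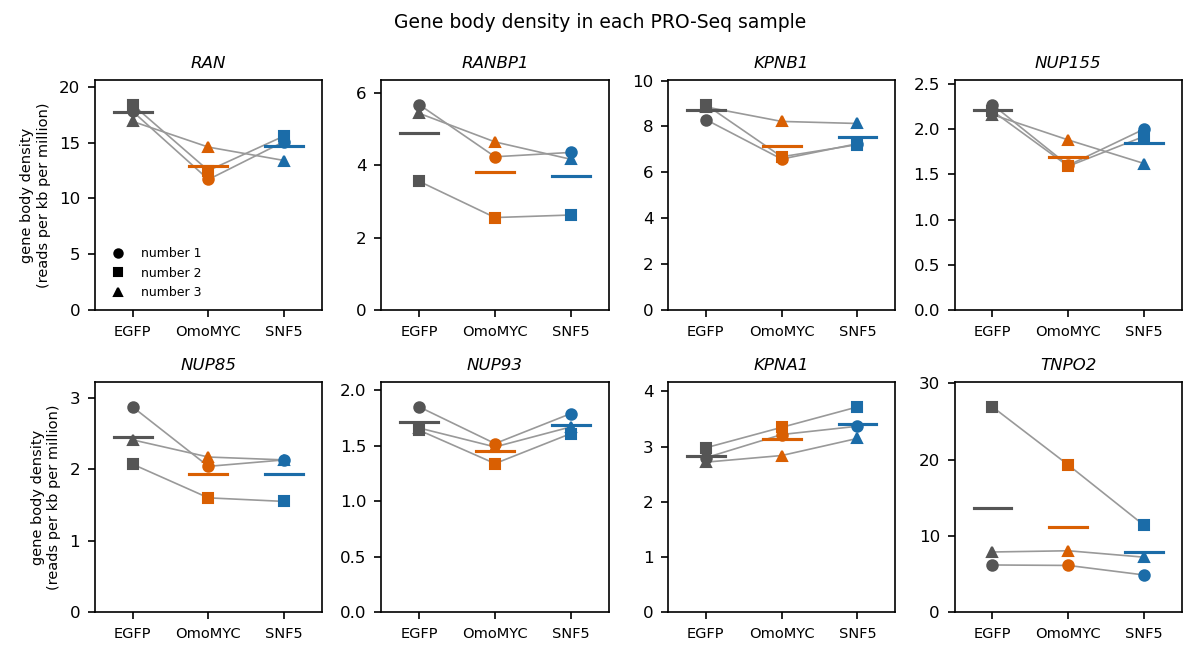
Gene body density in each PRO-Seq sample for 8 of the genes, in reads per kb per 1000000 reads. Symbols mark the replicate number, grey lines join samples of a number and bars are means; in RAN all EGFP samples (16.9 to 18.4) lie above all OmoMYC samples (11.7 to 14.6), and in TNPO2 the samples numbered 2 stand above the others.

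The 13 MYC-bound genes and the 30 others were set side by side. With OmoMYC all 13 bound genes had values below 0, as had 37 of the 43 together and 56.6% of all tested genes. The 13 had a median of −0.17 and 5 calls (RAN, RANBP1, KPNB1, CSE1L and NUP155), and the 30 others had a median of −0.12 and 7 calls. Over all 829 bound genes tested the median was −0.15, with 201 calls. With SNF5 12 of the 13 bound genes of the pore and its carriers had values below 0, as had 35 of the 43 and 62.6% of all tested genes. The 13 had a median of −0.16 and 4 calls (RANBP1, KPNB1, TNPO2 and NUP35), and the 30 others −0.14 and 9 calls. All 829 bound genes had −0.20 and 382 calls. These are descriptions, and the difference between bound and other genes was not tested.

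Other genes of the pathway came from a list of further pore and transport genes, of which 24 were in the table and 21 passed the filter. With OmoMYC 4 of the 21 fell and 0 rose in gene body counts, beside 7.27% and 5.16% of all tested genes: NXT1, a cofactor of mRNA export (−0.43), TMEM48, a membrane nucleoporin (−0.27), AHCTF1, which seeds pores on chromatin (−0.21), and RANBP3, a cofactor of XPO1 (−0.20). With SNF5 7 fell and 0 rose, beside 22.1% and 12.4%: NXT1 (−0.50), RANBP3 (−0.32), TMEM48 (−0.26), AHCTF1 (−0.17), SNUPN, the importer adaptor of small nuclear RNPs (−0.30), NXF1, the mRNA exporter (−0.25), and NUTF2, which brings RAN into the nucleus (−0.20). The medians of the 21 genes were −0.10 and −0.13.

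Promoter-proximal counts and the pausing index show whether polymerase near the start changed in another way than in the gene body. The index is the read density of the promoter-proximal window divided by that of the gene body. Its median over the 43 genes was 8.59, 57.8 and 30.3 in EGFP samples 1, 2 and 3, and over all tested genes 9.33, 44.8 and 27.8, following the share of promoter-proximal reads in each sample.

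Promoter-proximal counts were called for 2 of 43 genes with OmoMYC (IPO4 and IPO7, both higher), against 1.83% of all tested genes, and for 2 with SNF5 (IPO7 higher, NUP153 lower), against 4.31%. Between SNF5 and OmoMYC edgeR called 0 of 43 (3 at an unadjusted p under 0.05, and DESeq2 called 0), against 0.797%. The median of the 43 genes was 0.07 with OmoMYC and −0.09 with SNF5, and that of all tested genes 0.12 and −0.05. By number the medians of the 43 were 0.24, 0.11 and −0.13 with OmoMYC and 0.11, 0.00 and −0.27 with SNF5, so the sign was not the same in all numbers. Nor was it over all tested genes, with 0.35, 0.21 and −0.12 for OmoMYC and 0.10, −0.04 and −0.16 for SNF5. Without the samples numbered 1 the median of the 43 with OmoMYC was −0.01, and over the alternatives that with SNF5 ran from −0.17 to −0.01. The median with OmoMYC was −0.08, and so of the other sign, when samples were scaled by promoter-proximal counts, while that of all tested genes became −0.03.

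The pausing index was called for 1 of 43 genes with OmoMYC (IPO7), against 2.26% of all tested genes, and for 3 with SNF5 (IPO4 and IPO7 higher, NUP153 lower), against 3.66%. Between SNF5 and OmoMYC 0 of 43 were called (4 at an unadjusted p under 0.05), against 1.23%. Medians were 0.25 with OmoMYC and 0.07 with SNF5, beside 0.14 and 0.01 over all tested genes. By number they were 0.47, 0.30 and −0.10 with OmoMYC and 0.24, 0.21 and −0.14 with SNF5, so the samples numbered 3 had the other sign. So they had over all tested genes, with 0.37, 0.25 and −0.11 for OmoMYC and 0.16, 0.04 and −0.12 for SNF5. Over the alternatives the median of the 43 with OmoMYC ran from 0.13 to 0.37, and that with SNF5 from −0.01 to 0.24. Without the replicate block no gene of the 43 was called in these readouts, and none had an unadjusted p under 0.05. Leaving out the samples numbered 2, the deepest in this window as a share of reads, also left 0 calls.

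IPO7 (NM_006391, chromosome 11, 9406169 to 9469674), an importin of ribosomal proteins, was the one gene called in both comparisons with EGFP in both readouts. Its promoter-proximal reads were 49, 196 and 180 with EGFP, 67, 378 and 339 with OmoMYC and 87, 549 and 254 with SNF5. Its pausing index was 5.28, 29.2 and 14.1 with EGFP, 8.20, 62.3 and 26.9 with OmoMYC and 8.40, 70.2 and 24.5 with SNF5, higher than EGFP in each number. The index rose with OmoMYC (log2 fold change 0.91, standard error 0.22, adjusted p = 0.014) and with SNF5 (0.94, standard error 0.22, adjusted p = 0.0075). The promoter-proximal counts rose by 0.80 (adjusted p = 0.046) and 0.82 (adjusted p = 0.026), while the gene body value was −0.12 with either construct and passed neither test. Both readouts use the same promoter-proximal reads and both comparisons the same EGFP samples, so these calls are not independent. SNORA23, a small nucleolar RNA gene, lies on the same strand inside the gene body of IPO7, and its part in these reads was not tested.

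IPO4 (NM_024658, chromosome 14, 24649425 to 24658124) had 70, 405 and 488 promoter-proximal reads with EGFP, 108, 818 and 938 with OmoMYC and 99, 1038 and 644 with SNF5. Its index was 13.7, 166 and 75.2 with EGFP, 19.3, 300 and 110 with OmoMYC and 21.8, 393 and 138 with SNF5, higher than EGFP in each number. The promoter-proximal counts rose with OmoMYC (0.88, standard error 0.22, adjusted p = 0.033) and the index rose with SNF5 (0.95, standard error 0.23, adjusted p = 0.0089). The index had 0.64 with OmoMYC (standard error 0.22, adjusted p = 0.12). Of the EGFP samples, the second had a MYC peak at IPO4 (7.60-fold) and the first did not.

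NUP153 (NM_005124, chromosome 6, 17615269 to 17706818) moved the other way. Its promoter-proximal reads were 30, 457 and 398 with EGFP, 24, 336 and 294 with OmoMYC and 27, 294 and 159 with SNF5. Its index was 4.78, 88.0 and 47.7 with EGFP, 4.13, 73.4 and 35.7 with OmoMYC and 3.83, 49.9 and 22.3 with SNF5, lower in each number. With SNF5 the promoter-proximal counts fell (−0.94, standard error 0.23, adjusted p = 0.012) and so did the index (−0.82, standard error 0.23, adjusted p = 0.026). The count call held in 9 of 12 alternatives and the index call in 4 of 8. Both were lost without the samples numbered 2 and without those numbered 3.

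**Figure D4:**
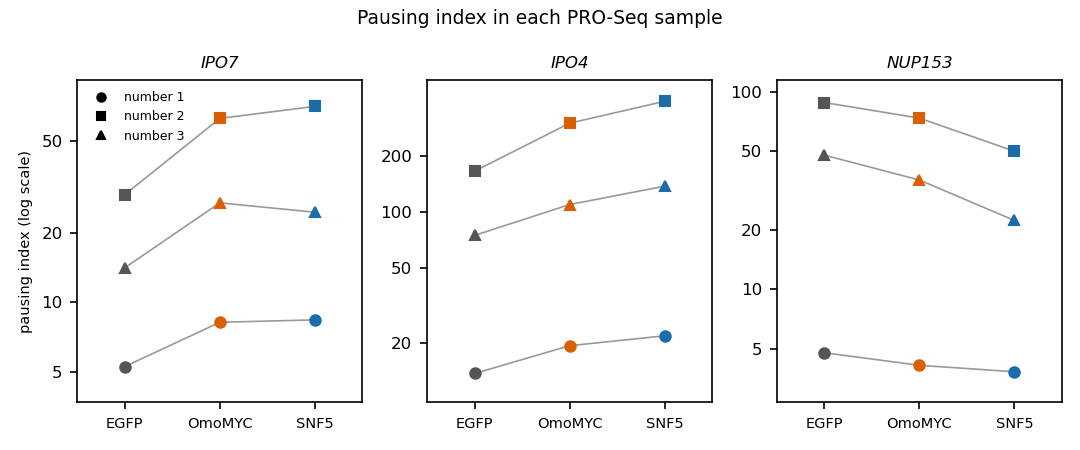
Pausing index of IPO7, IPO4 and NUP153 in each PRO-Seq sample on a log axis. Symbols mark the replicate number and lines join samples of a number; IPO7 and IPO4 are above EGFP and NUP153 is below EGFP in every number with both constructs, and the levels of the numbers lie far apart.

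Several further genes had large values that did not pass. The index of RAN was 1.92, 9.77 and 4.65 with EGFP, 3.12, 14.4 and 6.64 with OmoMYC and 2.69, 11.7 and 5.88 with SNF5, and its change with OmoMYC was 0.58 (standard error 0.23, adjusted p = 0.17). That of XPO7, an exportin, was 3.81, 17.4 and 6.81 with EGFP, 6.65, 26.1 and 10.0 with OmoMYC and 5.03, 19.6 and 8.83 with SNF5, and its change with OmoMYC was 0.62 (adjusted p = 0.24). Both were higher with OmoMYC in each number. The promoter-proximal counts of CSE1L were −0.45 with OmoMYC (adjusted p = 0.30) and −0.64 with SNF5 (adjusted p = 0.078), and those of KPNA1 0.56 with OmoMYC (standard error 0.30, adjusted p = 0.37).

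Between SNF5 and OmoMYC the largest index values were 0.69 for IPO13 (adjusted p = 0.17), −0.61 for TNPO1 (adjusted p = 0.16) and −0.54 for KPNA3 (adjusted p = 0.23). The index of IPO13 was 8.60, 49.6 and 24.7 with EGFP, 5.20, 51.4 and 17.2 with OmoMYC and 7.98, 70.5 and 34.3 with SNF5. That of TNPO1 was 8.16, 66.0 and 26.3 with EGFP, 16.8, 78.4 and 27.9 with OmoMYC and 9.72, 50.2 and 20.8 with SNF5. KPNA3 had 19.3, 253 and 89.0 with EGFP, 26.4, 286 and 76.1 with OmoMYC and 20.5, 149 and 63.1 with SNF5. In all 3 genes SNF5 lay on the same side of OmoMYC in each number, but none passed the test.

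Open chromatin at the starts was read from ATAC-Seq peak lists in hg38, with starts that RefSeq gives on GRCh38, and 39 of the 46 genes had a start there. A peak summit lay within 1 kb of the start in all 3 samples for 23 of the 39 genes with EGFP, 22 with OmoMYC and 34 with SNF5. Per sample the share was 59.0% to 92.3% with EGFP, 64.1% to 87.2% with OmoMYC and 89.7% to 94.9% with SNF5. Over the tested genes with a start it was 55.8% to 75.6%, 52.3% to 79.4% and 74.8% to 83.0%. The number of peaks called in a sample moved with this, from 7260 to 23684 in EGFP and OmoMYC samples and from 22722 to 33596 in SNF5 samples, and its part in the difference was not tested.

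RAN, XPO1, XPOT, XPO6, KPNA3, TNPO1, NUP35, NUP88, NUP98, NUP107, NUP133, NUP153, NUP155 and NUP214 were among those with a peak in all 9 samples. NUP210 had a peak in 0 of 3 EGFP, 0 of 3 OmoMYC and 2 of 3 SNF5 samples, and its gene body counts fell with SNF5. RCC1 and NUP50 each had a peak in 1 of 3 EGFP, 1 of 3 OmoMYC and 3 of 3 SNF5 samples. NUP188 had one in 2 of 3, 0 of 3 and 3 of 3. TNPO2 and IPO5 had a peak in none of the 9 samples at the start that RefSeq gives. KPNA2, with no PRO-Seq reads in the table, had an ATAC-Seq peak in 3 of 3 EGFP samples, 2 of 3 OmoMYC and 3 of 3 SNF5 samples, and MYC peaks in the second EGFP sample.

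**Figure D5:**
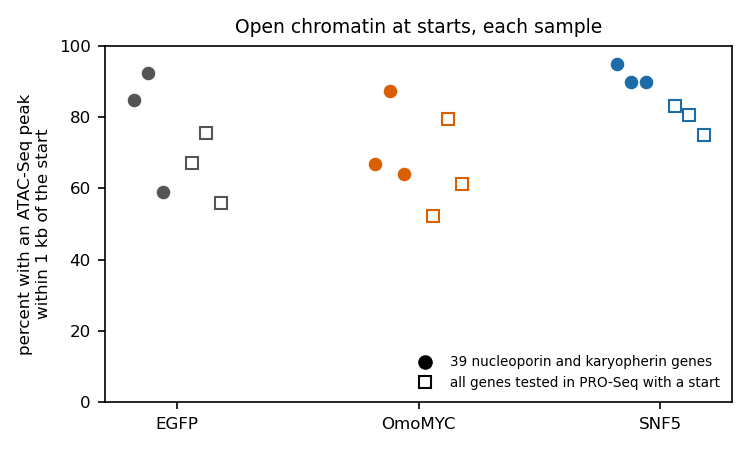
Share of genes with an ATAC-Seq peak within 1 kb of the start, in percent, for each sample. Filled circles are the 39 nucleoporin and karyopherin genes and open squares all tested genes with a start; the SNF5 samples lie between 89.7% and 94.9% for the 39 genes.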

How the data were processed

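The members and the lists of other genes were chosen with earlier results of these data known. PRO-Seq, MYC ChIP-Seq and ATAC-Seq files of G401 cells were used as deposited. Per the labels and methods, the authors trimmed PRO-Seq and ATAC-Seq reads with cutadapt, aligned reads with Bowtie2 (hg19 for PRO-Seq and ChIP-Seq, hg38 for ATAC-Seq), called peaks per sample with MACS2, and counted PRO-Seq reads along the coding strand of RefSeq transcripts with NRSA. For each region the deposited table has unnormalized counts, and for gene bodies also a signal (density in reads per bp), and count over density was within 1% of the gene body length for 99.94% of values. The deposited peak lists hold fold ratios over background and −log10 p and q, with no read counts. IgG samples were not used here.

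Of transcripts with one symbol the one with most reads was kept. Counts were tested with edgeR 4.0.16 in R 4.3.3 (limma 3.58.1; quasi-likelihood, Benjamini-Hochberg adjustment over 11171 genes, called under 0.05). All 9 samples entered 1 fit, blocked on replicate number, with offsets from gene body totals times RLE factors. Samples of the same number deviated together (correlations from 0.812 to 0.922 for gene body counts, and from −0.764 to 0.287 otherwise), so the numbers pair them. Scaling hides a change of all genes at once, and in bulk samples fewer cells that transcribe a gene and less transcription per cell cannot be told apart. For the pausing index both regions were fitted together, with a term per sample and terms for region by construct and region by number. Standard errors were taken from the estimate and its F statistic. The upper bounds given for a count of 0 (3 divided by the number of genes) cover counting error only. The tests were also run on counts simulated from the same kind of model, with planted changes larger than the called gene body values. Such a run does not show how they perform on gene body changes of the size called here, or whether the pairing holds. Alternatives used TMM factors, DESeq2 1.42.0, other filters, samples and peak rules. Genes given with values in every sample were RAN, RCC1, RANBP1, KPNB1, CSE1L, XPO1, the bound genes, and per comparison and readout those with the 3 lowest adjusted p-values and the 3 largest changes. Starts came from the PRO-Seq table, GENCODE on GRCh37 and RefSeq on GRCh38, and sequences from GRCh37. No coordinate was converted. Python 3.11.15, pandas 2.3.3 and NumPy 2.4.6 were used.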

Additional observations from a re-analysis of the deposited data

Results flagged for a closer look

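OmoMYC and SNF5 differed in their gene body counts for 2 of the 43 genes, by the test of one construct against the other. For IPO4 the log2 fold change of SNF5 against OmoMYC was −0.57 (standard error 0.10, adjusted p = 0.0083), lower with SNF5 in 3 of 3 numbers, and leaving out a number gave −0.67 to −0.44. For NUP93 it was 0.22 (standard error 0.05, adjusted p = 0.018), higher with SNF5 in 3 of 3 numbers. Without the replicate block neither gene was called. Without the samples numbered 1 neither was called (adjusted p = 0.099 for IPO4 and 0.25 for NUP93), and without those numbered 2 NUP93 was not (adjusted p = 0.23). The cause was not tested.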

How the results depend on the processing

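Of the 35 called values of single genes, none changed sign under any alternative. Calls were lost for 35 without the replicate block, 34 without replicate 2, 27 without replicate 1, 10 with only the 2 constructs compared, 5 with library totals, 2 each with TMM factors, no filter and without replicate 3, and 1 with promoter-proximal factors. The uncalled gene body value of IPO7 between SNF5 and OmoMYC became 0.10 (adjusted p = 0.017) without replicate 3, beside −0.07 without replicate 1. Promoter-proximal reads were few, which limits that readout and the pausing index. The cause of these changes was not tested.

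Without the replicate block, and so without the pairing by number, genes called in gene body counts were 1 for OmoMYC against EGFP, 92 for SNF5 against EGFP and 41 for SNF5 against OmoMYC, in place of 1388, 3852 and 1794. In promoter-proximal counts and the pausing index they were 0 in every comparison, in place of 204, 482 and 89, and of 252, 409 and 137. Of the 43 genes 0 were called in any of these by edgeR (8, 3 and 1 at an unadjusted p under 0.05 in gene body counts).

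Leaving out a replicate number gave 2 to 5823 genes called and 0 to 33 of the 43 in gene body counts for OmoMYC against EGFP. For SNF5 against EGFP it gave 785 to 6813 and 0 to 34, with a median of −0.18 to −0.10 over the 43, and for SNF5 against OmoMYC 317 to 4808 and 0 to 21. In promoter-proximal counts the ranges were 4 to 850 and 0 to 2, 59 to 1011 and 0 to 7, and 26 to 494 genes. In the pausing index they were 0 to 955 and 0 to 3, 9 to 617 and 0 to 3, and 9 to 471 genes.

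In promoter-proximal counts of OmoMYC against EGFP, DESeq2 called 134 genes and no filter 309, and of the 43 genes 1 was called with promoter-proximal factors and 0 with only the 2 constructs. For SNF5 against EGFP, promoter-proximal factors gave 1035 genes and 4 of the 43, DESeq2 301 and no filter 815. For SNF5 against OmoMYC no filter gave 267, a mean of at least 50 counts 31, only the 2 constructs 285, and promoter-proximal factors a median of −0.01. In gene body counts of SNF5 against OmoMYC, library totals gave 4 of the 43 and a mean of at least 50 counts 1154 genes. In the pausing index only the 2 constructs gave 177 genes for SNF5 against EGFP, and 349 genes and 1 of the 43 for SNF5 against OmoMYC. MYC-bound genes numbered 3 with a reciprocal overlap of 50%, 7 with a −log10 q of 5, 34 with a peak in either sample, and 13 to 34 without one EGFP sample.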
